A study of Mus musculus with 4 samples.

Results

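The 10 genes studied here belong to 3 families that bind one another across cell contacts, and were followed through the development of the mouse superior colliculus: the teneurins Tenm1, Tenm2, Tenm3 and Tenm4, the latrophilins Adgrl1, Adgrl2 and Adgrl3, and the fibronectin leucine-rich transmembrane genes Flrt1, Flrt2 and Flrt3. They were taken by gene symbol and were 10 of the 31053 genes in the deposited matrix, with all 10 found once. Nuclei came from superior colliculus, the midbrain region that receives retinal axons, of C57BL/6J mice with no further genotype or treatment in the labels. Each stage was 1 library: E19 came from embryos on day 19, while P4, P8 and P21 came from mice on postnatal days 4, 8 and 21. Each library pooled tissue of several animals, so neither animals nor sexes can be separated as replicates. Values are counts of unique molecular identifiers (UMIs) summed over the nuclei of a library and cell class, then scaled to counts per 1000000 UMIs (CPM). With 1 library per stage no test between stages was possible, and intervals in the text are 95% exact intervals that cover counting error only. Where 4 values stand in a row, they run in stage order from E19 to P21.

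Teneurins are large transmembrane proteins that pair with themselves across a contact and also bind latrophilins on the facing cell. Latrophilins are adhesion G protein-coupled receptors, first known as receptors of a black widow spider toxin, and act at synapses as postsynaptic receptors. Flrt proteins bind latrophilins and Unc5 receptors, and both kinds of binding are known to guide migrating neurons and axons. In the visual system, Tenm3 is known for its part in matching retinal axons to their targets. These functions are background and were not measured here.

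Bases before annotated starts of Adgrl1, Adgrl2 and Flrt2 are shown because the 3 genes differed in how evenly they were detected over neuron subtypes. Adgrl1 was the most even member (1.59-fold from lowest to highest subtype), and Adgrl2 (5.85-fold) and Flrt2 (8.30-fold) varied more. Tenm1 (11.5-fold) and Tenm4 (5.93-fold) also varied more than Adgrl2, and their bases are not shown. A link between these bases and evenness was not tested. Each line gives bases before the RefSeq gene start, 5′ to 3′ on the gene's strand, with every CG dinucleotide in capitals, from the RefSeq table for GRCm38.p6. The Adgrl1 stretch is chr8:83899848-83900097 on the plus strand, Adgrl2 is chr3:148954788-148954885 on the minus strand (only the 98 bases outside annotated exons), and Flrt2 is chr12:95691976-95692225 on the plus strand. The Adgrl2 stretch precedes an internal start: it lies within the GENCODE span of the gene and well downstream of that span's 5′ end, whose promoter is not shown.

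Adgrl1: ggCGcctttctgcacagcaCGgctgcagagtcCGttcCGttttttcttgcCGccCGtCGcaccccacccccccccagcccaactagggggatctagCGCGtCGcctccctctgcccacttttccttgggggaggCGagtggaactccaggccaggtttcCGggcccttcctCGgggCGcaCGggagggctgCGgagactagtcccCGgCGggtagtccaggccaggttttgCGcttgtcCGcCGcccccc

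Adgrl2: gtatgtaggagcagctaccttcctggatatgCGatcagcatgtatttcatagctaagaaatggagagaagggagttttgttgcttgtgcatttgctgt

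Flrt2: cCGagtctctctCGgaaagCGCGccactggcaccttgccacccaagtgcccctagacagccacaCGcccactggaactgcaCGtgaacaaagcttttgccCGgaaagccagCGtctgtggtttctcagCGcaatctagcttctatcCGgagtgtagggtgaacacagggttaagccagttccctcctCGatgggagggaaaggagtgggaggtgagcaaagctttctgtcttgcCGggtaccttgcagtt

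In the 250 bases before the start, Adgrl1 had 21 CG dinucleotides, Flrt2 had 12 and Adgrl2, at its internal start, had 3, against a median of 6 over 32851 such windows. The GC content was 68.8% for Adgrl1, 57.2% for Flrt2 and 37.6% for Adgrl2, against a median of 52.4%. On either strand, the motif GGGCGG was found in the Adgrl1 window and in 32.7% of all windows, and the motif TATAAA in the Adgrl2 window, though not within the stretch printed, and in 12.4% of all windows. The motif CCAAT, found in 33.8% of all windows, was in none of the 12 windows of the 9 members that had one. The Tenm1 window held no CG, the fewest among the members, and TATAAA, and 1 of the 3 Adgrl3 windows held 36 CG, the most. These matches describe the letters of the windows only.

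By GENCODE M21 on mm10, the members lie on 9 chromosomes and most are long. Tenm2, at chr11:36006656-37235964, spans 1229.3 kb, Tenm1 (chrX:42527866-43429126) 901.3 kb, Adgrl3 (chr5:81020138-81825133) 805 kb, Tenm4 (chr7:96171246-96911093) 739.8 kb and Tenm3 (chr8:48227682-48843951) 616.3 kb. Adgrl2 (chr3:148815583-148990555) spans 175 kb, Flrt2 (chr12:95692226-95785215) 92.99 kb, Adgrl1 (chr8:83900105-83941954) 41.85 kb, Flrt3 (chr2:140650914-140671469) 20.56 kb and Flrt1 (chr19:7092001-7105729) 13.73 kb. Flrt1 lies opposite Macrod1, and Flrt3 lies opposite Macrod2, a gene with 2057.8 CPM over all nuclei against 22.97 CPM for Flrt3. Whether counting used the read strand is not given in these sources, so UMIs of Flrt1 and Flrt3 could be shared with these genes and their values are uncertain.

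The libraries held 2249 to 2585 nuclei each and 19277512 to 31325079 UMIs, with a median of 6828 UMIs per nucleus at E19 and 11745 at P21. Of 29 marker genes, 22 were highest in the class they mark. The precursor markers Pdgfra and Cspg4 were highest in dividing cells (523 and 175.5 CPM, against 286 and 125 in the oligodendrocyte lineage). Of the astrocyte markers, Slc1a3 was highest in vascular leptomeningeal cells (1700 against 1015 CPM) and Gja1 in the class labelled epithelial (701 against 287 CPM). The 102 nuclei of the class labelled epithelial had 15 UMIs of Ttr, 3 of Foxj1 and 0 of Epcam, so that label was not borne out by these markers. Both transmitter types gave UMIs in 30.74% of nuclei of the excitatory class and 18.39% of the inhibitory class. At least 1 UMI of a Y-linked gene was found in 82.44% of nuclei at E19 and 40.15% at P21, and of Xist in 0.967% and 68.07%, so the apparent sex makeup of the pools differed between stages. Only 9 barcode sequences occurred in more than 1 library.

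Together the 10 genes gave 1378426 UMIs, and 9723 of 9724 nuclei had at least 1 of them. In excitatory neurons their share of all UMIs was 1.53% (E19), 1.64% (P4), 1.78% (P8) and 1.37% (P21). In inhibitory neurons the share was 1.40%, 1.47%, 1.56% and 1.11% at the same stages. The share was highest at P8 and lowest at P21 in both classes. Tenm2 alone gave 787484 of the 1378426 UMIs, and the other families did not share the P8 peak. The latrophilins summed to 2711 CPM (E19), 2385 (P4), 2006 (P8) and 1691.5 (P21) in excitatory neurons. The Flrt genes there had their lowest sum at P8, at 155.9 CPM.

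Unspliced RNA was counted, and long genes may yield more UMIs in nuclei, so levels of different genes were compared per 100 kb of gene. Whether UMIs rose with gene length was not tested. Dividing by length places short genes such as Adgrl1 (41.85 kb) higher among the members than their CPM does. Per 100 kb, Tenm2 stood highest in neurons at every stage, with 674.9 CPM per 100 kb at E19 and 587.6 at P21. Adgrl1 was next at E19 with 496.8 CPM per 100 kb and ended at 284.1 at P21, below Tenm3, which went from 357 to 341.8. Adgrl3, long and abundant in raw UMIs, gave 250.7 CPM per 100 kb at E19 and 164.7 at P21. Tenm1 was the lowest member at each stage, with 74.52 CPM per 100 kb at E19 and 48.52 at P21. Flrt1, Flrt2 and Flrt3 lay between 93.88 and 170.6 CPM per 100 kb throughout.

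Among the teneurins, Tenm2 and Tenm3 were highest at P8 in both neuron classes. The level of Tenm2 in excitatory neurons was 8803 CPM (E19), 9689 (P4), 11226 (P8) and 8249 (P21). Inhibitory neurons had 7317, 8028, 8806 and 5899 CPM. The P8 value was the highest in each class, and the P21 value the lowest.

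Tenm3 in excitatory neurons was at 2032 CPM (E19), 2238 (P4), 3016 (P8) and 2131 (P21). The inhibitory class had 2525, 2803, 3213 and 2075 CPM. From P8 to P21 the log2 ratio of Tenm3, with 5 CPM added to both values as for all log2 ratios here, was -0.63 in inhibitory neurons and -0.50 in excitatory neurons. The inhibitory value, a 1.55-fold decline, passed the 1.5-fold line (0.585 on the log2 scale) used here to call a change. It was -0.52 when every nucleus was thinned to 2300 UMIs and -0.53 with nuclei weighted alike, both short of the line, and it was just short of it with subtypes weighted alike.

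Tenm1 had its highest level in excitatory neurons at P4. Its level there was 779.8 CPM (E19), 937 (P4), 584 (P8) and 481 (P21). Inhibitory neurons had 462 CPM, 500.3, 425 and 381. The log2 ratio from P4 to P8 in excitatory neurons was -0.68. At P4 the subtype EN7 gave 5083 of the 13952 Tenm1 UMIs of the excitatory class. EN7 had 191 of 1206 excitatory nuclei at P4, 33 of 1338 at E19 and 1 nucleus in each later library. Without EN7 the log2 ratio of Tenm1 from P4 to P8 was -0.32, and -0.03 with all subtypes weighted alike.

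Tenm1 is on the X chromosome, and the sex makeup of the pools differed between stages. At P8, excitatory nuclei with Xist and no Y-linked UMI had 580.4 CPM of Tenm1 (95% interval 557 to 604), and those with a Y-linked UMI and no Xist had 580.9 CPM (564 to 599). At P21 the values were 478 CPM (463 to 493) and 469 CPM (449 to 489). At P4 they were 973 CPM (944 to 1002) and 896 CPM (876 to 917), the only excitatory pair with intervals apart.

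Tenm4 moved least among the teneurins at the level of whole classes. The excitatory class had 834 CPM (E19), 949.8 (P4), 864 (P8) and 1019 (P21). The inhibitory class had 969, 893, 912 and 935 CPM. All stages lay within 1.5-fold of each other in both classes.

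**Figure D1:**
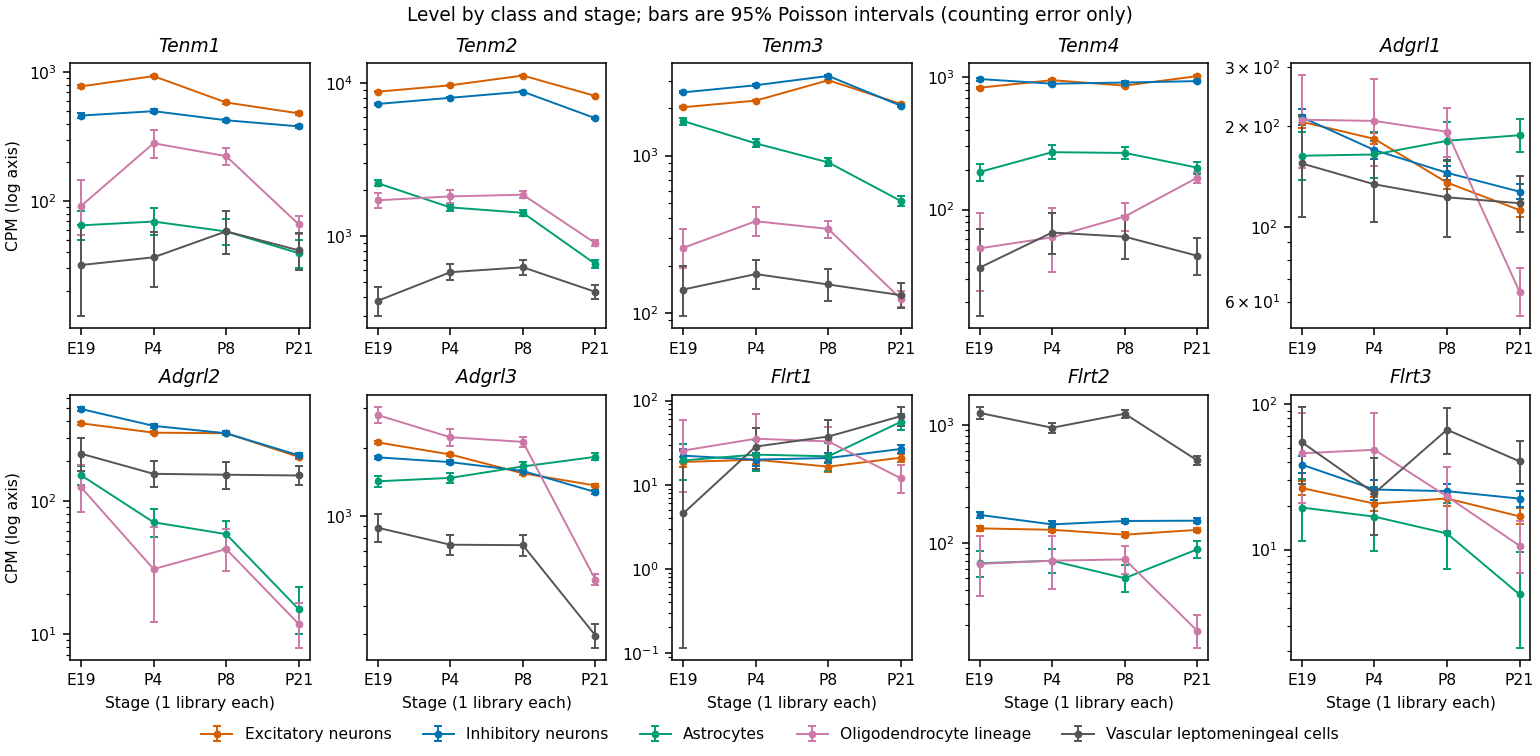
Level of each gene in CPM (log axis, a different range in each panel) at E19, P4, P8 and P21 in 5 cell classes, with 95% Poisson intervals as bars. Adgrl1 and Adgrl2 descend from E19 to P21 in both neuron classes, while Tenm2 and Tenm3 peak at P8, and Flrt2 is highest in vascular leptomeningeal cells at every stage.

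The latrophilins were lower at P21 than at E19 in both neuron classes. Adgrl2 in inhibitory neurons was at 493 CPM (E19), 368 (P4), 324 (P8) and 221 (P21), a log2 ratio of -1.14 over the whole period. The excitatory class had 385, 327, 324 and 215 CPM, a log2 ratio of -0.82. The P4 and P8 values of excitatory neurons had overlapping counting intervals (318 to 337 and 314 to 334), and every other step of Adgrl2 was downward.

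Adgrl1 in excitatory neurons was at 206 CPM (E19), 183 (P4), 136 (P8) and 112 (P21). Inhibitory neurons had 212, 169.5, 145 and 127 CPM. The log2 ratios from E19 to P21 were -0.85 and -0.71. Each later library lay below the one before it in both classes.

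Adgrl3 in excitatory neurons was at 2121 CPM (E19), 1875 (P4), 1546 (P8) and 1364 (P21). The inhibitory class had 1821, 1734, 1583 and 1277 CPM. The log2 ratio from E19 to P21 was -0.63 in excitatory neurons, past 1.5-fold, and -0.51 in inhibitory neurons, short of it. Under median-of-ratios scaling, which raised the median log2 ratio of all genes by 0.11 in excitatory neurons, the Adgrl3 ratio was -0.51 and that of Tenm1 -0.57. The fourth latrophilin-family gene, Adgrl4, was near 1 CPM in neurons and 786 to 896 CPM in endothelial cells, where it is known to be expressed.

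The Flrt genes gave few UMIs apart from Flrt2. Flrt2 in excitatory neurons was at 132 CPM (E19), 129 (P4), 117 (P8) and 129 (P21). Inhibitory neurons had 172, 143, 153 and 154 CPM. No step of Flrt2 came near 1.5-fold in either class.

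Flrt3 in inhibitory neurons was at 38.3 CPM (E19, 95% interval 33.4 to 43.6), 25.8 (P4, 22.04 to 30.1), 25.2 (P8, 22.3 to 28.3) and 22.4 (P21, 19.7 to 25.3). The excitatory class had 26.5, 20.7, 22.4 and 16.9 CPM. The E19 value stood above the other 3 in each class, although in excitatory neurons its interval (23.6 to 29.6) overlapped that of P8 (19.96 to 25.15), and the log2 ratios from E19 to P21 were -0.66 and -0.52. The inhibitory ratio fell short of 1.5-fold with nuclei thinned (-0.33), with a pseudocount of 20 CPM (-0.46) and with median-of-ratios scaling (-0.57).

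Flrt1 in inhibitory neurons was at 22.1 CPM (E19, 18.5 to 26.3), 19.9 (P4, 16.6 to 23.7), 20.8 (P8, 18.2 to 23.6) and 26.6 (P21, 23.7 to 29.8). In excitatory neurons it was at 18.6, 19.8, 16.4 and 20.9 CPM. The inhibitory intervals of E19 and P21 overlapped, and the log2 ratio between them was 0.22, which was not called. Macrod1, on the opposite strand, was at 39.3 CPM in inhibitory neurons at E19 and 53.2 CPM at P21, and its part in the Flrt1 values was not tested.

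The share of nuclei with a UMI depended on depth. Adgrl1 gave a UMI in 78.48% of excitatory nuclei at E19 (95% interval 76.17 to 80.65) and in 86.07% at P21 (83.24 to 88.58), although its CPM declined. With every nucleus thinned to 2300 UMIs the shares were 39.39% and 24.34%. Tenm2 was found in 98.28% of thinned excitatory nuclei at E19 and 99.56% at P21. Flrt1 was found in 5.38% and 4.55% of thinned excitatory nuclei at the same stages, and Flrt3 in 5.31% and 3.96%.

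From E19 to P21, 4 of 10 members were called lower in excitatory neurons (Tenm1, Adgrl1, Adgrl2 and Adgrl3), where 21.5% of 7650 genes tested were called lower. In inhibitory neurons 3 of 10 were called lower (Adgrl1, Adgrl2 and Flrt3), against 21.4% of 7807 genes. None was called higher in either class, against 12.8% and 14.6% of genes. The excitatory calls of Tenm1 and Adgrl3 fell short of the line with subtypes weighted alike, at log2 ratios of -0.28 and -0.41, and with median-of-ratios scaling, and that of Tenm1 also with thinned nuclei (-0.58). Adgrl1 and Adgrl2 were past the line in both classes under each alternative run. The median log2 ratio of the members was -0.31 in excitatory and -0.30 in inhibitory neurons, against -0.06 and -0.04 over all genes tested.

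Single steps carried few calls. From E19 to P4 none of 9 members tested in excitatory and none of 10 in inhibitory neurons was called, where 4.26% and 4.57% of genes were called lower and 2.16% and 2.70% higher. From P4 to P8, Tenm1 in excitatory neurons was the 1 call among 9 members, against 4.09% of genes called lower and 2.01% higher. No member was called in inhibitory neurons at that step, against 3.12% lower and 1.02% higher. From P8 to P21, Tenm3 in inhibitory neurons was the 1 call among 10 members, against 9.83% of genes called lower and 9.03% higher. In excitatory neurons no member was called at that step, against 9.72% lower and 7.91% higher, with Adgrl2 at a log2 ratio of -0.580 just short of the line. Flrt1 was below 20 CPM in the excitatory class at E19, P4 and P8 and was not tested there at the first 2 steps.

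Subtypes were compared within themselves because their shares of a class changed between libraries. A subtype entered with at least 20 nuclei in both libraries, which left 11 excitatory and 12 inhibitory subtypes from E19 to P21, all sharing the same 2 libraries and so not independent of each other. Adgrl2 was lower at P21 in 23 of 23 subtypes, and 8.55% of genes were lower in all 23. In IN3 it was at 354 CPM (E19), 104 (P4), 65.7 (P8) and 57.2 (P21), a log2 ratio of -2.53 and the largest decline of Adgrl2. The smallest was in EN2, at 190.3 CPM at E19 and 147 at P21.

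Adgrl1 was lower in 22 of 23 subtypes, and the exception, IN10, had 162 CPM at E19 (112 to 228) and 174.5 at P21 (138 to 218), with overlapping intervals. Adgrl3 and Tenm2 were each lower in 21 subtypes, Flrt3 in 19, Tenm3 in 18, Tenm1 in 15, Flrt2 in 14 and Flrt1 in 10. These tallies take any fold, also within counting error, as for Flrt3 in IN11 with 4 UMIs at E19 and 6 at P21. The share of all genes reaching such tallies was not computed. The median log2 ratio over the 23 subtypes was -1.22 for Adgrl2, -0.84 for Adgrl1, -0.77 for Flrt3 and -0.56 for Tenm3. For Tenm3 in excitatory neurons the class value (0.07) and the value with subtypes weighted alike (-0.47) differed in sign.

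Tenm4 moved the other way in excitatory neurons, being higher at P21 in 11 of 11 excitatory subtypes, where 10.2% of genes were higher in all 11. In EN5 it was at 348 CPM (E19, 283 to 424), 545 (P4), 652 (P8) and 946 (P21, 889.6 to 1004), with each later library higher. From P8 to P21 alone, Tenm4 was again higher in 11 of 11 excitatory subtypes, where 10.8% of genes were, while Tenm3 was lower in 11 of 11 excitatory and 12 of 12 inhibitory subtypes, where 11.5% and 8.74% of genes were. The log2 ratios of Tenm4 from E19 to P21 ran from 0.07 in EN12 to 1.43 in EN5. Weighting excitatory subtypes alike gave 0.68 for Tenm4, past the 1.5-fold line, where the class value was 0.29. In inhibitory neurons Tenm4 was higher in 7 and lower in 5 subtypes.

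**Figure D2:**
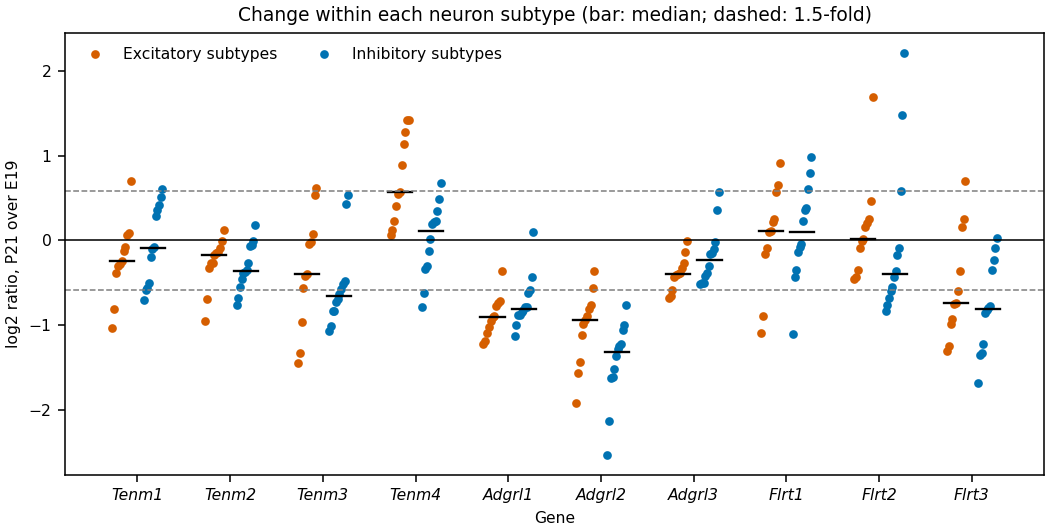
Log2 ratio of P21 over E19 for each gene within each neuron subtype (1 point per subtype, 11 excitatory and 12 inhibitory; bars are medians, dashed lines 1.5-fold). All points of Adgrl2 lie below 0, and all excitatory points of Tenm4 lie above 0.

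No member was 1.5-fold higher in either neuron class in all 4 libraries, where 1.48% of 6219 genes were so on the excitatory side and 1.09% on the inhibitory side. Tenm1 came nearest, with log2 ratios of excitatory over inhibitory neurons of 0.75 (E19), 0.90 (P4), 0.45 (P8) and 0.33 (P21). Without EN7 the first pair were 0.65 and 0.54. Tenm2 was higher in excitatory neurons in every library by 0.27, 0.27, 0.35 and 0.48, and these were the 2 members on that side in all 4, against 17.1% of genes at any fold. Flrt1, Flrt2 and Flrt3 were lower in excitatory than inhibitory neurons in all 4 libraries, against 31.9% of genes, and the Flrt1 difference at P4 was -0.0045. Counting intervals of the neuron classes overlapped at P4 for each Flrt gene, at P8 for Flrt1 and Flrt3, and at E19 for Flrt1, and were apart otherwise. The other 5 members changed side between libraries.

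**Figure D3:**
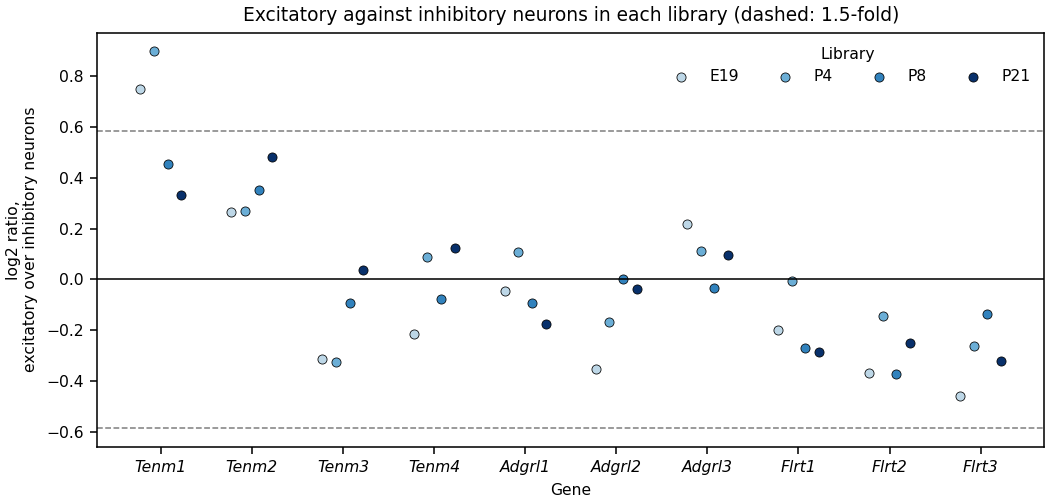
Log2 ratio of the level in excitatory over inhibitory neurons for each gene, 1 point per library, with dashed lines at 1.5-fold. Tenm1 and Tenm2 stay above 0 and the 3 Flrt genes below 0, and only Tenm1 at E19 and P4 crosses a dashed line.

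The members differed in how far their levels varied over neuron subtypes. Across the 25 subtypes, the highest mean level over libraries was at least 4-fold above the lowest for 6 of 10 members, against 18% of 9108 genes and 29% of those reaching 100 CPM. The range was 11.5-fold for Tenm1, 8.30-fold for Flrt2, 5.93-fold for Tenm4, 5.85-fold for Adgrl2, 5.17-fold for Tenm3 and 4.12-fold for Tenm2 on the log2(CPM + 5) scale. It was 3.72-fold for Flrt3, 2.87-fold for Flrt1, 2.44-fold for Adgrl3 and 1.59-fold for Adgrl1. EN7 was highest for Tenm1, Tenm4, Adgrl1 and Adgrl3, and EN11 was lowest for Tenm3. Both had means over 2 libraries (E19 and P4), where the opposite extremes had means over 4. The ranges of these genes therefore mix stage with subtype. In the order of subtypes for each gene, 22 to 24 of the 24 neighbouring pairs had ranges over libraries that overlapped, so most neighbours in the order did not differ beyond their spread over libraries. The exceptions were EN7 over IN12 and IN12 over EN11 for Tenm1, and EN6 over EN3 for Flrt2. For Tenm1, the counting intervals of EN7 and IN12 were apart at E19. At P4 they overlapped, at 1781 to 1882 CPM in EN7 and 1529 to 1955 CPM in IN12.

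Tenm1 was led by EN7, at 2580 CPM at E19 (2405 to 2765) and 1831 at P4 (1781 to 1882). The inhibitory subtype IN12 came next, at 1757, 1732, 1563 and 1661 CPM through the 4 stages. IN4 had the lowest mean over libraries, at 138, 217, 221 and 170.1 CPM, although EN6 was lowest at P4 (172 CPM) and IN2 at P8 (179 CPM). IN12 held its level across libraries, with all 4 counting intervals overlapping between 1529 and 1695 CPM.

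Tenm2 had its highest mean over libraries in EN9, at 19242 CPM (E19), 14325 (P4), 12646 (P8) and 9958 (P21). EN6 took the lead from P4, with 9995, 16284, 15601 and 10881 CPM. IN12 was lowest in the first 3 libraries, at 3378, 3108, 3294 and 3843 CPM. IN3 was lowest at P21 and had 3979, 3884, 4314 and 2486 CPM. EN9 declined in each later library, whereas EN6 rose between E19 and P4.

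Tenm3 was highest in IN11 in 3 of 4 libraries, at 7769 CPM (E19), 4640 (P4), 6533 (P8) and 3843 (P21), from 24 to 40 nuclei each. IN7 led at P4 with 4888 CPM, with a counting interval (4612 to 5178) that overlapped that of IN11 (4385 to 4907). EN11 was lowest, at 1129 CPM at E19 and 1066 at P4, and had too few nuclei later. IN12 was lowest at P8 and P21, at 1097 and 791 CPM.

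Tenm4 shared its leading subtype at E19 and P4 with Tenm1: EN7 had 2461 CPM of Tenm4 at E19 and 1727 at P4. IN4, the subtype lowest in Tenm1, was next at 2298, 1670, 1419 and 1494 CPM. EN8 was lowest in 3 of 4 libraries, at 284, 303, 389.7 and 419 CPM, and IN3 was lowest at P8, at 332 CPM. IN3 and IN12 were low in Tenm4 as they were in Tenm2 and Tenm3.

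Adgrl2 was led by IN7 in all 4 libraries, at 1357 CPM (E19, 1198 to 1532), 773 (P4), 787 (P8) and 578 (P21, 529 to 632). The lowest subtype was IN3 in 3 of 4 libraries, and at P21 IN7 had 578 CPM where IN3 had 57.2. Adgrl3 was more even, at 2936, 2460, 1861 and 1825 CPM in EN2 and at 874, 1082, 1049 and 864 CPM in IN3. Adgrl1 lay between 142.8 CPM in EN8 and 229.5 CPM in EN7 as means over libraries, where EN7 had only E19 and P4. In single libraries the lowest and highest subtypes of Adgrl1 were at 132.9 CPM (EN13) and 272 CPM (IN5) at E19, and at 97.0 CPM (EN8) and 174.5 CPM (IN10) at P21.

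Flrt2 was also highest in IN7 in 3 of 4 libraries, at 577 CPM (E19, 475 to 695), 374 (P4), 319.8 (P8) and 339.5 (P21). IN5, which led at P8, had 326, 334, 362 and 289 CPM. EN12 had the lowest mean, at 41.3, 59.3, 17.1 and 58.8 CPM from 8 to 72 UMIs, and was lowest at P8 alone. Flrt3 was highest in IN6 at E19 (79.6 CPM, 51.0 to 118) and P4, but IN6 had 28.6 CPM at P21 (16.9 to 45.1), and IN12 led at P8 and P21 with 45.05 and 49.97 CPM. Its lowest mean was in EN9, with 1 to 12 UMIs per library. Flrt1 was highest in IN3 in 3 of 4 libraries, at 39.7, 28.4, 47.6 and 53.2 CPM, from 9 to 106 UMIs.

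**Figure D4:**
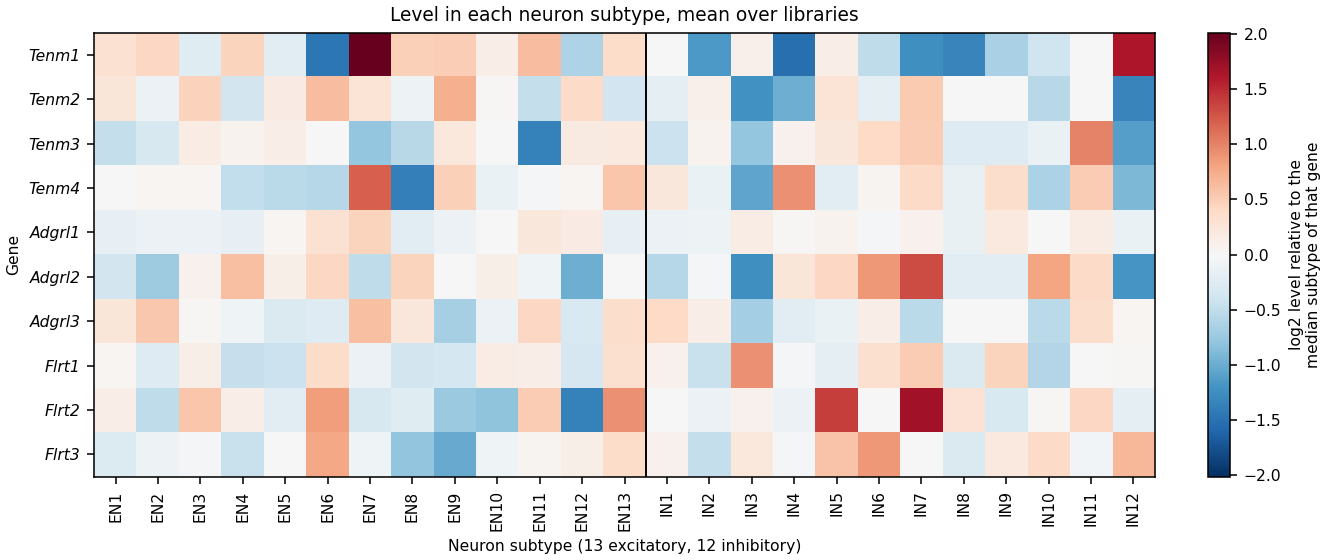
Mean level over libraries of each gene (rows) in each of 25 neuron subtypes (columns), as the log2 difference from that gene's median subtype. Tenm1 is highest in EN7 and IN12, Flrt2 and Adgrl2 in IN7, and the Adgrl1 row varies least.

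Pairs of members from facing families varied together over subtypes only in part. Tenm3 and Adgrl2 were the only pair of 45 with a Pearson correlation over 0.5 in every library, at 0.51, 0.51, 0.52 and 0.61 for E19, P4, P8 and P21 over 25, 25, 23 and 23 subtypes. The points of a library share that library, and no test was made. The correlation rested on few subtypes at the later stages: without IN3 and IN12, the 2 subtypes low in both genes and chosen after their values were seen, it was 0.46, 0.39, 0.14 and 0.25. Tenm2 and Tenm3 correlated at 0.46, 0.43, 0.54 and 0.47, Adgrl2 and Flrt2 at 0.53, 0.37, 0.41 and 0.33, and Tenm1 and Tenm3 at -0.31, -0.54, -0.38 and -0.48.

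**Figure D5:**
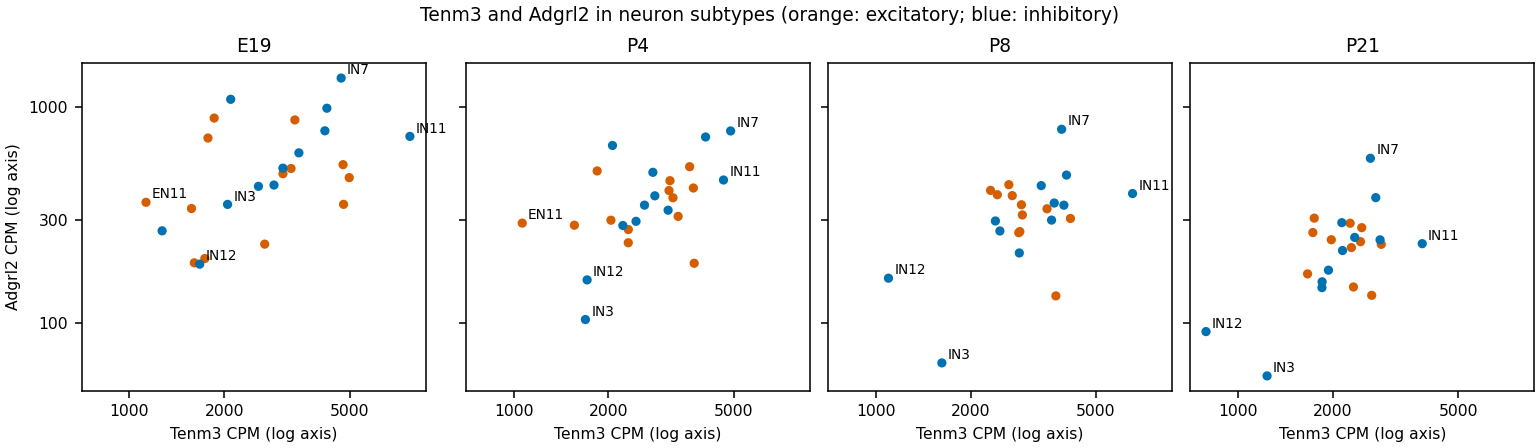
Tenm3 level against Adgrl2 level in CPM (log axes), 1 point per neuron subtype with at least 20 nuclei, in each library. IN7 is highest in Adgrl2 at every stage, IN11 stands to the right in Tenm3, and IN3 and IN12 sit at the lower left from P4 on.

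By the rule of highest Pearson correlation over 25 subtypes among 9108 genes, Banf2 was most like Tenm2, at 0.91 overall and 0.77 to 0.94 in single libraries. Pdzrn4 and Dlgap3 followed Tenm2 at 0.73 and 0.72. For Adgrl2 the gene most like it was Epha7 (0.73), an ephrin receptor, Zfp618 reached 0.67, and Epha7 kept 0.57 to 0.71 in single libraries. For Tenm1 the 3 genes were Wnk2 (0.73), Micall2 (0.70) and Lsamp (0.67), a cell adhesion gene that kept 0.66 to 0.80. Single libraries gave 0.37 to 0.48 for Wnk2, and Micall2 gave 0.01 at P21. Each gene named by this rule was picked for its high value among 9108 genes, and no test was made. The first value given for each gene rests on means over libraries, for EN7 and EN11 over E19 and P4 alone, and so mixes stage with subtype.

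For Adgrl3 the most like genes were Ap1s3 (0.85), Lrrn2 (0.85) and Atp13a2 (0.84), and for Flrt2 they were Grm3 (0.72), Mbip (0.72) and Brf1 (0.67). Grm3 gave 0.30 at P21, while Mbip gave 0.25 and Brf1 0.27 at P4. Adgrl1 was most like Dpysl3 (0.80), Irf2bp2 (0.79) and Plppr3 (0.78), but single libraries gave -0.27 to 0.60 for Dpysl3. At P8, Irf2bp2 gave 0.07 and Plppr3 -0.10. Tenm3 was most like Tef (0.72), Zfand4 (0.71) and Pald1 (0.70), but Tef gave -0.28 at E19 and Pald1 -0.34 at P21. Tenm4 was most like Armc10 (0.72), Ankrd13b (0.69) and Slc48a1 (0.67), and Flrt3 was most like Kat6a (0.80), Eif3d (0.69) and Ddx17 (0.68). Single libraries gave 0.21 to 0.47 for Armc10, 0.18 to 0.58 for Ankrd13b and 0.12 to 0.46 for Slc48a1. They gave 0.16 to 0.56 for Kat6a and 0.097 to 0.63 for Eif3d. Ddx17 gave -0.09 at E19. For Flrt1 the list was Macrod1 (0.71), Prima1 (0.69) and Vamp2 (0.68), where Macrod1 is the gene on the opposite strand and gave 0.23, 0.32, 0.74 and 0.60 by library. Flrt3 and Macrod2 gave -0.09 to 0.08.

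Members of all 3 families were also found outside neurons. Astrocytes, which support and ensheath synapses, had 1660 CPM of Tenm3 (E19), 1197 (P4), 906 (P8) and 515 (P21). Adgrl2 in astrocytes was at 157 CPM (132 to 184), 69.3 (54.0 to 87.6), 56.4 (44.0 to 71.3) and 15.4 (9.95 to 22.7), the last from 25 UMIs. Adgrl3 instead was highest at P21, at 1425, 1476, 1659 and 1830 CPM. The neuronal gene Rbfox3 was at 113 CPM in the astrocyte class at E19 and 16.6 at P21, so Rbfox3 declined beside Tenm3 and Adgrl2, and the part of neuronal RNA in their values was not tested.

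The 2 astrocyte subtypes differed the same way in every library in Tenm4 and Tenm3, but not in Tenm1 or Tenm2. Fibrous astrocytes had 346 CPM of Tenm4 (E19), 696 (P4), 881 (P8) and 648 (P21), from 41 to 55 nuclei. Protoplasmic astrocytes had 152, 149, 135 and 136 CPM, below the fibrous values at every stage with counting intervals apart. Tenm3 was also higher in fibrous astrocytes in each library, at 2430, 1826, 1607 and 1195 CPM against 1460, 1016, 754 and 405. Tenm2 was higher in fibrous astrocytes except at P4 (1343 against 1598 CPM). Tenm1 was higher in fibrous astrocytes only at P8 (123 against 44.1 CPM).

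In the oligodendrocyte lineage Adgrl3 was at 2804 CPM (E19), 2236 (P4), 2132 (P8) and 520.3 (P21). The makeup of the class moved with this: oligodendrocyte precursors kept 2854, 2520, 2359 and 2114 CPM, while the 187 myelinating oligodendrocytes at P21 had 215 CPM (193 to 239). Committed oligodendrocytes lay between, at 1675 CPM at P8 and 523 at P21. Tenm1 in precursors was at 94.4 CPM (E19, 56.0 to 149), 321 (P4, 241 to 419), 283 (P8) and 351 (P21). Tenm4 was higher in myelinating oligodendrocytes, at 228 CPM at P21 (205 to 253), than in precursors, at 66.8 CPM (40.8 to 103).

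Flrt2 was highest in vascular leptomeningeal cells, the fibroblast-like cells of the meninges and larger vessels. It was at 1264 CPM (E19, 1120 to 1422), 946 (P4), 1245 (P8) and 499 (P21, 455 to 547), where excitatory neurons had 117 to 132 CPM. Adgrl3 in the same class was at 887, 745, 742 and 294 CPM. Endothelial cells, with 12 to 22 nuclei per library, had 595 CPM of Adgrl2 (E19), 733 (P4), 664 (P8) and 353 (P21), and 1406, 1323, 1710 and 1180 CPM of Adgrl3 (1180 from 87 UMIs). The class labelled epithelial had 744, 709.5, 854 and 786 CPM of Adgrl2, and Adgrl2 was not lower there at P21 than at E19.

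Microglia gave a low level of every teneurin. Summed over libraries, their level was 16.6% of the neuronal level for Tenm1, 13.2% for Tenm2, 12.04% for Tenm3 and 14.04% for Tenm4, beside 11.4% for the neuronal marker Rbfox3, 34.0% for Snap25, 44.3% for Gad2 and 64.3% for Slc17a6. Endothelial cells had 6.67%, 4.18%, 5.13% and 4.09%, beside 5.02% for Rbfox3, 13.6% for Snap25, 6.21% for Gad2 and 11.5% for Slc17a6. A UMI of Tenm2 was found in 96.67% of 90 microglia at a median of 3219 UMIs and in 99.89% of 7552 neurons at a median of 10226. In microglia the 4 teneurin percentages lay above that of Rbfox3 and below those of the other 3 neuronal markers, and the part of free neuronal RNA in them was not tested. Adgrl2 in endothelial cells was at 203% of the neuronal level, and Flrt2 at 265%, above every neuronal marker. Adgrl3 (87.6%), Adgrl1 (53.6%) and Flrt1 (24.1%, from 3 UMIs) also lay above every marker there, and Flrt3 (7.03%, from 1 UMI) did not. In microglia, Adgrl1 (68.7%) and Adgrl2 (75.1%) lay above every neuronal marker. Adgrl3 (19.96%), Flrt2 (57.5%), and Flrt1 and Flrt3 with 1 UMI each, did not.

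Known binding partners and scaffolds, 18 genes in all with Adgrl4 among them, were followed in the same way. From E19 to P21, 2 of 15 tested were called lower in excitatory neurons (Nrxn2 and Shank2) and 1 higher (Gpc3), against 21.5% and 12.8% of all genes tested. In inhibitory neurons 2 of 14 were lower (Nrxn2 and Robo1) and 1 higher (Cntn6), against 21.4% and 14.6% of all genes. Nrxn2, a presynaptic neurexin, was the 1 partner called the same way in both classes. It was at 500.1 CPM (E19), 488 (P4), 397 (P8) and 219.8 (P21) in excitatory neurons, a log2 ratio of -1.17. The inhibitory class had 516.5, 520.4, 455 and 251 CPM, a log2 ratio of -1.03. Its largest step was from P8 to P21, with log2 ratios of -0.84 and -0.85, the step at which Adgrl2 had -0.58 and -0.54.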

How the data were processed

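Superior colliculus nuclei of 4 libraries, 1 per stage, were captured with 10x Genomics chemistry, and per the labels Cell Ranger 3.0.2 aligned them to an mm10 reference of unspliced transcripts, which lets intronic reads count. The deposited matrix holds raw UMI counts per gene and nucleus. The authors' deposited table of nuclei gives stage, class and subtype, and a percent of mitochondrial UMIs of at most 5. A further 9 columns of that table were not used. How the authors filtered nuclei, treated doublets and named subtypes is not given in the sources used here, and no doublet caller was run. All 9724 nuclei were kept.

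The members, the partner list and the comparisons were chosen with earlier results of these data known. Python 3.11.15 with numpy 2.4.6, pandas 2.3.3 and scipy 1.17.1 summed UMIs per library and class to CPM. Log2 ratios add 5 CPM, and a change was called past 1.5-fold with at least 20 CPM in the higher group. No p-value was computed, because each stage has 1 library. Intervals are Poisson for CPM and Clopper-Pearson for shares, both at 95%. UMIs are molecules, and the intervals ignore animal-to-animal and preparation error. Subtypes needed 20 nuclei in a library, which left out 16 combinations of subtype and library. Named genes were all 10 members, the partners that passed the fold in both neuron classes the same way (others are named with their counts), and the 3 genes most correlated with each member. The procedure was tested on simulated data. Alternatives covered scaling, pseudocount, weighting, class assignment, thinning, filters and omission of EN7, and the omission of 47 nuclei above 40000 UMIs was added after seeing the data. Of the genes that the likeness rule named, 1 is not reported here.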

Additional observations from a re-analysis of the deposited data

Results flagged for a closer look

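Flrt1 values in 3 non-neuronal classes differed in direction between E19 and P21, a difference that was not tested. The log2 ratio of P21 over E19 was 1.32 in astrocytes (18 UMIs at E19 and 91 at P21) and 2.88 in vascular leptomeningeal cells (1 and 60 UMIs). It was -0.85 in the oligodendrocyte lineage (5 and 28 UMIs). The makeup of that lineage changed as well: oligodendrocyte precursors alone had 26.2 CPM of Flrt1 at E19 (8.52 to 61.2) and 36.7 at P21 (18.3 to 65.7), not lower, while the 187 myelinating oligodendrocytes at P21 had 6.38 CPM. Macrod1, on the strand opposite Flrt1, went from 33.5 to 91.6 CPM in astrocytes, from 31.8 to 44.7 CPM in vascular leptomeningeal cells and from 76.3 to 55.7 CPM in the oligodendrocyte lineage, and its part in the Flrt1 values was not tested.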

How the results depend on the processing

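The number of members called lower from E19 to P21 in excitatory neurons was 4, and 2 with median-of-ratios scaling (Adgrl1 and Adgrl2). It was 3 with subtypes weighted alike, where Tenm1 and Adgrl3 were lost and Flrt3 gained, and 3 with thinned nuclei, where Tenm1 was lost. With a pseudocount of 1 CPM, Flrt3 was gained and no member lost, its excitatory decline being 1.56-fold with no pseudocount. The number called higher there was 0, and 1 with subtypes weighted alike (Tenm4). The 3 lower calls in inhibitory neurons became 2 without Flrt3 under median-of-ratios scaling, a pseudocount of 20 CPM, thinned nuclei or a minimum of 100 CPM, and 4 with subtypes weighted alike (Tenm3 gained). In inhibitory neurons 0 were called higher, and 1 with thinned nuclei (Flrt1, 0.67). From E19 to P4 in inhibitory neurons 0 were lower, but 2 with subtypes weighted alike (Adgrl2 and Flrt3) and 1 with thinned nuclei (Flrt3). The 1 lower call from P4 to P8 in excitatory neurons, Tenm1, became 0 with median-of-ratios scaling, with subtypes weighted alike or without EN7. From P8 to P21, the 0 lower calls in excitatory neurons became 1 with a pseudocount of 1 CPM or with neurons classed by their own UMIs, and the 1 in inhibitory neurons became 0 with subtypes or nuclei weighted alike or with thinned nuclei, and 2 without nuclei above 40000 UMIs. The causes of these moves were not tested. No called value changed sign under the alternatives run. Of single values, 499 of 680 changes between stages, 276 of 360 class ratios, 59 of 70 subtype ranges and 2 of 80 shares of nuclei stayed within their counting error. The number of members with a 4-fold range over subtypes was 6, 4 with at least 50 nuclei per subtype and 7 or 8 in single libraries. No paired analysis was possible because each stage had 1 library. Depth limits Flrt1 and Flrt3 most, with 2196 and 2334 UMIs in all nuclei.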
